A study of Mus musculus with 67 samples.

Results

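The expression of 10 genes that report or restrain the ERK pathway was followed in mouse small intestinal organoids and in irradiated crypts: Dusp4, Dusp5, Dusp6, Spry1, Spry2, Spry4, Spred1, Etv4, Etv5 and Fosl1. They were chosen by name, as textbook outputs and feedback inhibitors of ERK, and all 10 were among the 29579 genes of the expression table. Growth factors such as EGF and bFGF bind receptor tyrosine kinases, which signal through Ras, Raf and MEK to the kinase ERK. Active ERK switches on a set of genes, and the products of several of them then dampen the pathway. Dusp4, Dusp5 and Dusp6 encode phosphatases that take the activating phosphates off ERK, with DUSP5 acting in the nucleus and DUSP6 in the cytoplasm. The Sprouty proteins (Spry1, Spry2, Spry4) and SPRED1 block the signal between the receptor and Raf. Etv4 and Etv5 encode ETS transcription factors of the PEA3 group, and Fosl1 encodes FRA1, a subunit of the AP-1 transcription factor. In the intestinal crypt, EGF signaling sustains the division of stem and progenitor cells.

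Bulk RNA sequencing covered 67 libraries, 49 of organoids in 10 conditions and 18 of crypts in 9 groups. Organoids were grown from crypts of the proximal small intestine of 6- to 12-week-old mice. The ENR condition (7 libraries) combined R-Spondin 1 at 500 ng/mL with EGF at 50 ng/mL and the BMP antagonist noggin at 100 ng/mL. The 8C condition (7 libraries) held 50 ng/mL EGF, 10% R-Spondin 1 conditioned medium, 20 ng/mL bFGF, the BMP receptor inhibitor LDN193189 at 0.2 µM, GSK-3 Inhibitor XV at 0.1 µM, the p38 and Tie2 inhibitor Pexmetinib at 1 µM, the histone deacetylase inhibitor VPA at 500 µM and the EZH2 inhibitor EPZ6438 at 2 µM. EGF was thus present at the same dose in both media, and bFGF in 8C alone. Single omissions gave 8C -V (without VPA, 6 libraries), 8C -E (without EPZ6438, 7), 8C -EGF, 8C -bFGF, 8C -Pex (without Pexmetinib) and 8C -GSK3i (3 each). 8C -VE lacked VPA and EPZ6438 (7 libraries), and ENR +VE had them added to ENR medium at doses not given in the sources used here (3 libraries). Crypts were taken from untreated mice (normal crypt) and from mice at day 1, 2, 3 or 5 after a single dose of 12 Gy, the latter with or without daily gavage of 40 mg/kg VPA and 0.6 mg/kg EPZ6438 (+VE), with 2 libraries in each of the 9 groups. The irradiated mice were 8-week-old female C57BL/6 mice. The labels do not tie replicates to separate animals or cultures, and the study's legends count mice for some of these profiles without saying which library came from which mouse. The p-values therefore measure the spread between these libraries, which may be technical where libraries share a mouse.

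Values were given as TPM, a transcript level scaled to gene length and library total, and the depth behind them is unknown. The markers Epcam, Cdh1, Krt8 and Vil1 summed to between 4821 and 8350 TPM in the organoids, whereas the endothelial pair Pecam1 and Cdh5 stayed at or below 0.888 TPM. The table's columns summed to between 983801 and 988144 TPM in organoids but to between 819346 and 910935 TPM in crypts, so levels were not compared between the 2 kinds of sample. A change was called when limma gave a Benjamini-Hochberg adjusted p below 0.05 over all genes tested together with at least a 2-fold difference of log2(TPM + 1). Each share of members called is set beside the share of all genes called in the same comparison. In bulk RNA, fewer cells of a type and less RNA per cell cannot be told apart.

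Because TPM is scaled to length, levels can be set side by side between the genes. In organoids Etv4 was the most abundant of the 10, with condition means between 77.5 and 181 TPM. The means of the phosphatase genes were 64.3 to 127 TPM for Dusp4, 54.7 to 99.8 TPM for Dusp5 and 36.7 to 77.5 TPM for Dusp6. Spry1 (23.3 to 69.6 TPM), Etv5 (22.9 to 48.8 TPM), Spred1 (27.4 to 44.1 TPM) and Spry2 (37.9 to 50.5 TPM) overlapped the range of Dusp6, and Spry4 (2.10 to 3.90 TPM) and Fosl1 (1.29 to 6.35 TPM) had the lowest means. The genes also differed in how far their condition means ranged. The highest mean was 2.34 times the lowest for Etv4, 2.13 times for Etv5, 2.11 times for Dusp6 and 1.33 times for Spry2. No ratio is given for Spry1, because its libraries split by replicate number, as described with 8C against ENR. For Fosl1 it was 4.93 times the lowest with all libraries but 3.09 times without ENR replicate 7, which stood at 20.6 TPM.

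**Figure D1:**
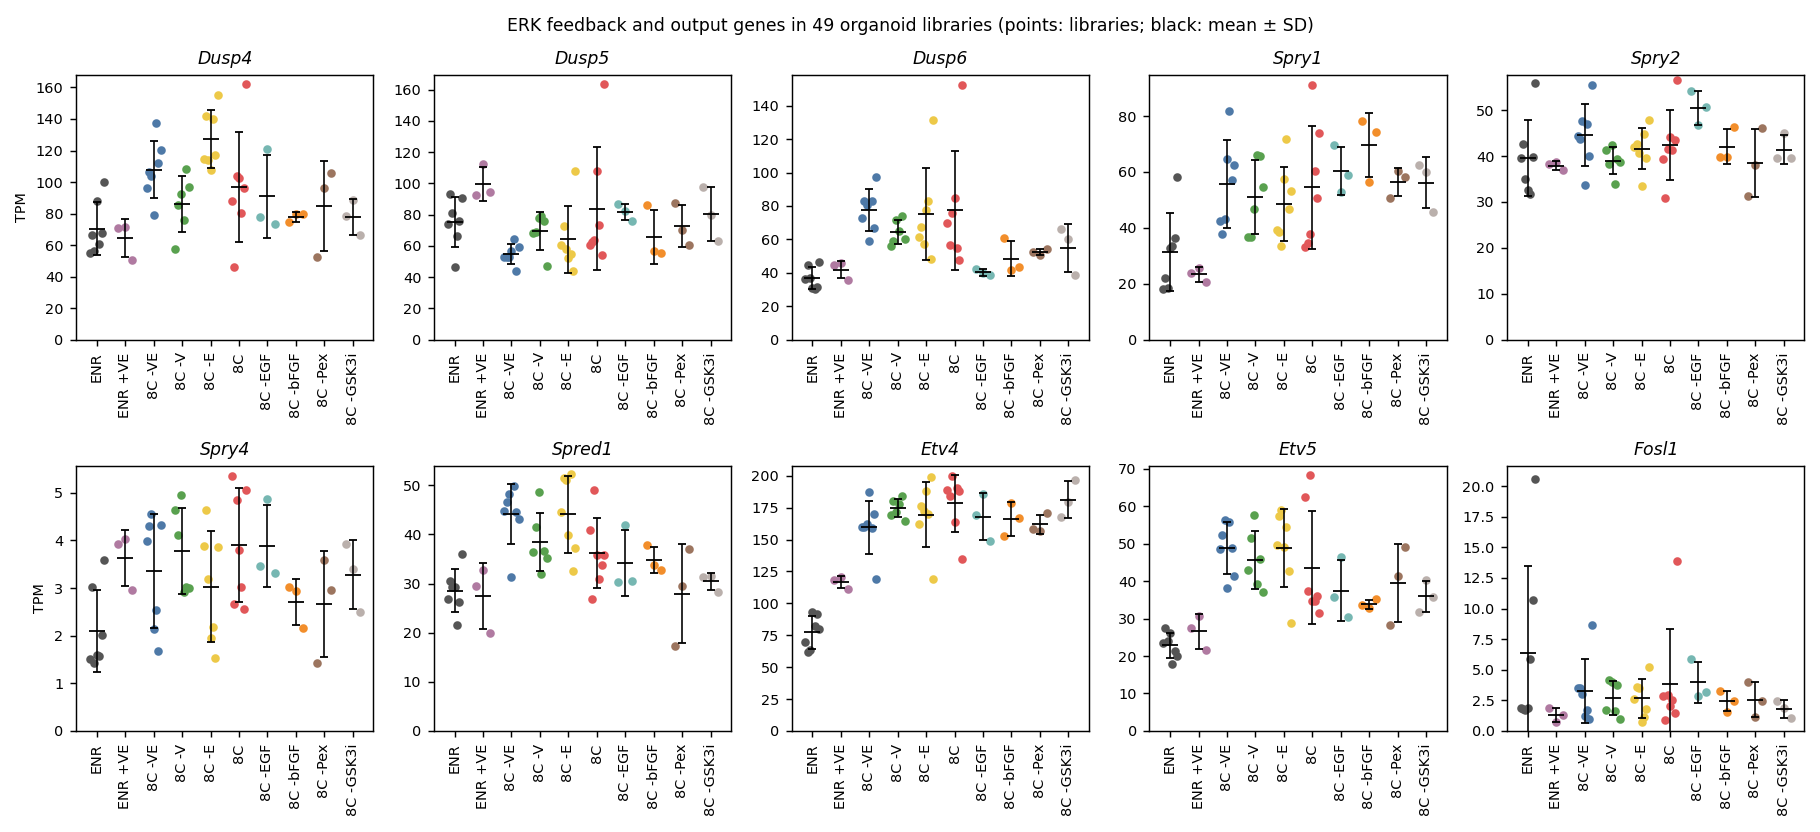
Level in TPM (linear axis from 0) of each of the 10 genes in the 10 organoid conditions, with 1 point per library and the mean ± SD in black. Etv4, Dusp6 and Etv5 sit lower in all 7 ENR libraries than in all 7 8C libraries, and Fosl1 reaches 20.6 TPM in ENR replicate 7.

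The comparison of 8C with ENR asked how the full medium shifts ERK output. Etv4 was higher in 8C and passed the call. Dusp6 and Etv5 were also higher in every 8C library than in any ENR library, at just under 2-fold on the log2(TPM + 1) scale. Of the 10 genes 1 was called, against 15.2% of all genes tested, and 6 had an unadjusted p below 0.05, as did 43.0% of all genes. The median log2 fold change of the 10 was 0.54, against 0.08 for all 12665 genes tested.

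Etv4 ranged from 62.0 to 93.2 TPM in ENR (median 79.8; mean 77.5 ± 12.8, SD, n = 7). In 8C it ranged from 135 to 200 TPM (median 188; mean 179 ± 22.3, SD, n = 7). The groups did not overlap, and the log2 fold change was 1.20 (SE 0.12; limma, Benjamini-Hochberg adjusted p = 5.71e-07). The phosphatase gene Dusp6 ranged from 30.2 to 46.7 TPM in ENR (median 36.1) and from 47.7 to 153 TPM in 8C (median 69.9). The highest ENR library thus lay just below the lowest 8C library, and the log2 fold change was 0.98 (SE 0.21; adjusted p = 0.00150). Etv5 ranged from 17.9 to 27.4 TPM in ENR (median 23.4) and from 31.4 to 68.2 TPM in 8C (median 36.1). Its groups did not overlap either, with a log2 fold change of 0.85 (SE 0.18; adjusted p = 0.00115).

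Cell type markers differed between the same libraries. The Paneth cell list (Ang4, Lyz1, Defa30 and Defa3) summed to between 548 and 1419 TPM in 8C and 4731 and 6722 TPM in ENR, with 3 of its 4 genes called lower in 8C. The stem cell list (Lgr5, Ascl2, Olfm4 and Cd44) summed to between 128 and 273 TPM in 8C and 1711 and 2980 TPM in ENR. Of its 4 genes 1 was called higher and 1 lower, so the sum does not stand for each gene or for a number of stem cells. Of the enterocyte list (Fabp1, Apoa1, Reg1 and Rbp2) 3 of 4 genes were called lower, although the sums overlapped, at 1177 to 3322 TPM in 8C and 1178 to 9266 TPM in ENR. The part of these markers in the values of Etv4, Dusp6 and Etv5 was not tested. In 8C -VE, which is compared with ENR next, the Paneth cell list summed to between 4788 and 7521 TPM, overlapping ENR, and the stem cell list to between 825 and 1896 TPM, against 1711 to 2980 TPM. There 2 of 4 enterocyte genes were called lower than in ENR, with sums of 824 to 2987 TPM, and 0 of 4 in the Paneth and stem cell lists.

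Among the Sprouty genes, Spry1 (log2 fold change 0.79, adjusted p = 0.0347) and Spry4 (0.67, adjusted p = 0.0137) were below 2-fold, and their libraries overlapped between the media. Spry1 split by replicate number in both. In ENR it stood at 18.1 to 22.0 TPM in replicates 1 to 3 and at 32.9 to 36.5 TPM in replicates 4 to 6, and in 8C at 33.3 to 37.9 TPM and 50.6 to 91.1 TPM. Within each set of numbers every 8C library lay above the highest ENR library, with a log2 fold change of 0.83 for replicates 1 to 3 and 0.91 for replicates 4 to 6. What the replicate numbers stand for is not given in the labels. Dusp4, Spred1, Spry2 and Dusp5 did not pass the test, at log2 fold changes of 0.41, 0.32, 0.10 and 0.07. Fosl1 was the only one of the 10 with a negative value, -0.47 (adjusted p = 0.539), and its ENR libraries were widely spread: 1.73 to 1.86 TPM in replicates 1 to 4, but 5.89, 10.7 and 20.6 TPM in replicates 5, 6 and 7.

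The medium without VPA and EPZ6438 was set against ENR to see which differences did not need the pair of epigenetic drugs. Dusp6, Etv4 and Etv5 were all higher in 8C -VE, and these 3 of 10 were called, against 3.19% of all genes. In this comparison 8 of the 10 had an unadjusted p below 0.05, as did 22.4% of all genes, and the median of the 10 was 0.62, against 0.08 for all genes. Dusp6 stood at 59.1 to 97.2 TPM in 8C -VE (median 80.5), Etv4 at 119 to 187 TPM (median 160) and Etv5 at 38.2 to 56.3 TPM (median 48.8). None of these ranges overlapped that of ENR. The log2 fold changes were 1.06 for Dusp6 (SE 0.13; adjusted p = 1.30e-04), 1.04 for Etv4 (SE 0.12; adjusted p = 9.54e-05) and 1.06 for Etv5 (SE 0.12; adjusted p = 8.28e-05). These values lie close to the 2-fold limit. After quantile normalization 2 of the 10 were called, against 3.19% of all genes, and with replicates 4 to 6 alone 2, against 4.59%. The call of Etv4 was lost, at log2 fold changes of 1.00, 0.99 and 0.99, when 8C -VE replicate 4, ENR replicate 2 or ENR replicate 3 was left out, with adjusted p values of 1.77e-04, 2.69e-04 and 3.49e-04.

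Spred1 (log2 fold change 0.61, adjusted p = 0.00464), Dusp4 (0.62, adjusted p = 0.0134) and Spry1 (0.87, adjusted p = 0.0357) had adjusted p values below 0.05 in 8C -VE against ENR without reaching 2-fold. Dusp5 differed from the other phosphatase genes in sign: it stood at 43.9 to 64.3 TPM in 8C -VE and at 46.5 to 93.1 TPM in ENR (log2 fold change -0.43, adjusted p = 0.0611, or 0.0452 with the replicate number as a block).

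Adding VPA and EPZ6438 to ENR medium called none of the 10 genes with limma, against 8.87% of all genes, and 3 of the 10 had an unadjusted p below 0.05, as did 31.3% of all genes. Etv4 came closest. Its 3 ENR +VE libraries stood at 118, 121 and 111 TPM, all above the highest ENR library, with a log2 fold change of 0.60 (SE 0.14; adjusted p = 0.0100). The size depends on the ENR libraries used. Etv4 stood at 62.0 to 69.7 TPM in ENR replicates 1 to 3 and at 82.3 to 93.2 TPM in replicates 4 to 6, and the log2 fold change was 0.84 against the former and 0.39 against the latter. Dusp5 stood at 92.4, 112 and 94.7 TPM and Spry4 at 3.92, 4.04 and 2.96 TPM, giving log2 fold changes of 0.43 and 0.61 (adjusted p = 0.149 and 0.0800). Dusp6 did not pass the test, at 44.4, 45.6 and 35.9 TPM, nor did Etv5, at 27.5, 30.7 and 21.5 TPM. Whether the change with the drugs differed between the media was tested as an interaction. None of the 10 passed it with limma, against 0.643% of all genes, and 1 had an unadjusted p below 0.05, as did 6.44% of all genes. That gene was Etv4, with an estimate of -0.44 (SE 0.18; adjusted p = 0.557).

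The libraries numbered 7 stood apart for several of these genes. In all 4 groups that have one (ENR, 8C, 8C -E and 8C -VE), replicate 7 was the highest library for Dusp6, Spry2 and Fosl1. In 8C and 8C -E it was also the highest for Dusp4 and Dusp5 and the lowest for Etv4 and Etv5. Fos and Egr1, which growth factors and tissue handling alike induce within minutes to hours, were highest in the same libraries: Fos reached 2113 TPM in 8C replicate 7, against 89.5 to 978 TPM in the other 8C libraries, and 1179 TPM in ENR replicate 7, against 126 to 362 TPM in the others. The part of this shift in the results was not tested. Without the replicates numbered 7, 8C against ENR still gave 1 of 10 called, against 15.7% of all genes, and 8C -VE against ENR still gave 3, against 3.99%, with log2 fold changes of 1.28 and 1.12 for Etv4 and 0.86 and 1.07 for Dusp6.

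**Figure D2:**
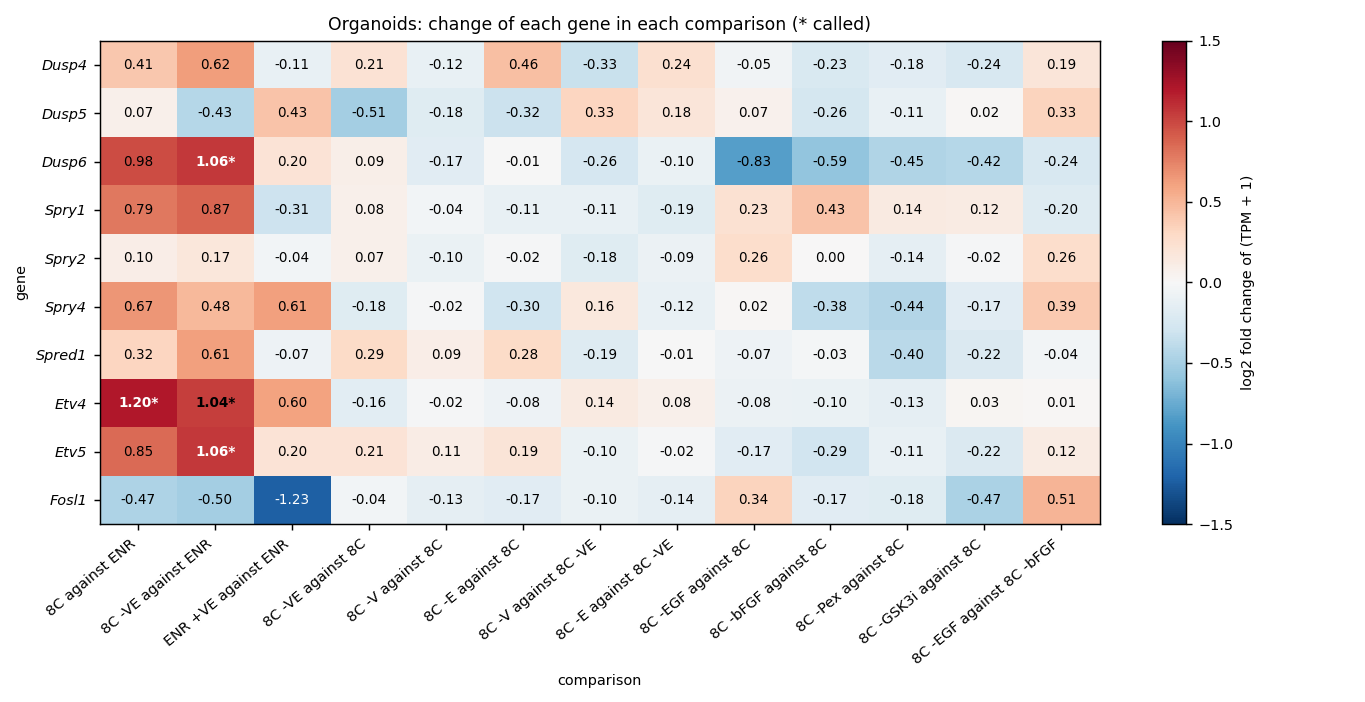
Log2 fold change of TPM + 1 of the 10 genes (rows) in the organoid comparisons (columns), as color, with called changes marked. Called changes are found only in 8C against ENR (Etv4) and 8C -VE against ENR (Dusp6, Etv4 and Etv5).

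Leaving out EGF, bFGF or Pexmetinib tested what each contributes to these genes when the rest of the 8C medium is present. The 10 genes did not pass the call in any of the 3 comparisons. Dusp6 had the lowest log2 fold change of the 10 in each of them, and without EGF its 3 libraries lay below all 7 8C libraries. Etv4 stayed near its 8C level in all 3.

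Without EGF, 0 of 10 genes were called with limma, against 0.451% of all genes, and 1 of 10, Dusp6, had an unadjusted p below 0.05, as did 12.7% of all genes. Its 3 libraries stood at 42.5, 39.8 and 38.4 TPM, against 47.7 to 153 TPM in 8C. The log2 fold change was -0.83 (95% interval -1.45 to -0.21; adjusted p = 0.259). With all 10 organoid groups in the fit the adjusted p of Dusp6 was 0.0330, with 8C replicates 1 to 3 as the only controls it was 0.0255 at a log2 fold change of -0.72, and with 8C replicates 4 to 6 it was 0.0721 at -0.58. The sign of the Dusp6 value was the same under each of these fits, and the size stayed short of 2-fold. In the order of the deposited columns, all libraries lacking EGF, bFGF, Pexmetinib or the GSK-3 inhibitor stand with 8C replicates 4 to 6. The labels do not say whether they were grown together. Against ENR, whose libraries ranged from 30.2 to 46.7 TPM, the 8C -EGF libraries lay within the range. Another ERK output gene, Ier2, went the other way, at 1397, 1124 and 1065 TPM without EGF and 305 to 823 TPM in 8C. The output genes Fos, Egr1 and Fosb overlapped 8C in the same libraries.

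The other 9 genes had intervals that included no change after removal of EGF. Etv4 stood at 169, 186 and 149 TPM (log2 fold change -0.08, 95% interval -0.38 to 0.21), so a 2-fold fall of Etv4 lies outside its interval. Spry2 had a log2 fold change of 0.26 (-0.09 to 0.61), Spred1 one of -0.07 (-0.47 to 0.33) and Etv5 one of -0.17 (-0.72 to 0.38). Fosl1 was poorly determined, at 0.34 (-0.75 to 1.43). In these same libraries the mesenchymal list (Col1a1, Col1a2, Col3a1, Pdgfra and Vim) summed to between 58.1 and 141 TPM, against 18.2 to 27.9 TPM in 8C, and the stem cell list to between 516 and 1291 TPM, against 128 to 273 TPM. The enterocyte list summed to between 340 and 373 TPM, against 1177 to 3322 TPM in 8C, with 2 of 4 genes called lower, and the Paneth cell list to between 2745 and 3126 TPM, against 548 to 1419 TPM, with 1 of 4 called higher. The transit amplifying list (Top2a, Hmgb2 and Tubb5) summed to between 2063 and 2189 TPM, against 765 to 1887 TPM in 8C. None of these lists overlapped 8C in its sum. The part of these cell type markers in the Dusp6 value was not tested.

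Without bFGF, 0 of 10 genes were called with limma, against 0.00779% of all genes, and 0 of 10 had an unadjusted p below 0.05, compared with 5.56% of all genes. Dusp6 stood at 60.6, 41.4 and 43.2 TPM, 2 of the 3 below every 8C library, with a log2 fold change of -0.59 (95% interval -1.23 to 0.06). Spry1 stood at 78.2, 56.6 and 74.2 TPM, within the range of 8C over all 7 libraries. Its log2 fold change was 0.43 over all 8C libraries, but 0.95 against 8C replicates 1 to 3 and 0.08 against 8C replicates 4 to 6. The value of Spry1 therefore turned on which 8C libraries it was set against, and 8C replicates 4 to 6 are those listed with the 8C -bFGF libraries.

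Without Pexmetinib, 0 of 10 genes were called with limma, against 0.482% of all genes, and 0 of 10 had an unadjusted p below 0.05, compared with 13.0% of all genes. Dusp6 stood at 52.6, 50.8 and 54.3 TPM (log2 fold change -0.45, 95% interval -1.07 to 0.17), Spry4 had a log2 fold change of -0.44 (-1.02 to 0.15) and Spred1 one of -0.40 (-0.90 to 0.10). Without the GSK-3 inhibitor, 0 of 10 genes were called with limma and the share of all genes called was 0%, with 836 genes (6.53%) and 0 of the 10 at an unadjusted p below 0.05. Dusp6 stood at 65.9, 60.4 and 38.5 TPM there and Etv4 at 168, 179 and 197 TPM, and both overlapped 8C.

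The media without EGF and without bFGF were also compared with each other. Again 0 of 10 genes were called with limma, against 1.84% of all genes, and 1 had an unadjusted p below 0.05, as did 24.5% of all genes. That gene was Spry2, at 54.2, 46.8 and 50.6 TPM without EGF and 39.9, 39.8 and 46.4 TPM without bFGF (log2 fold change 0.26, adjusted p = 0.174). Dusp6 had a log2 fold change of -0.24 between them, with an interval of -0.57 to 0.09. With the replicate number as a block, 5 of the 10 had an unadjusted p below 0.05, compared with 31.0% of all genes, and none was called.

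**Figure D3:**
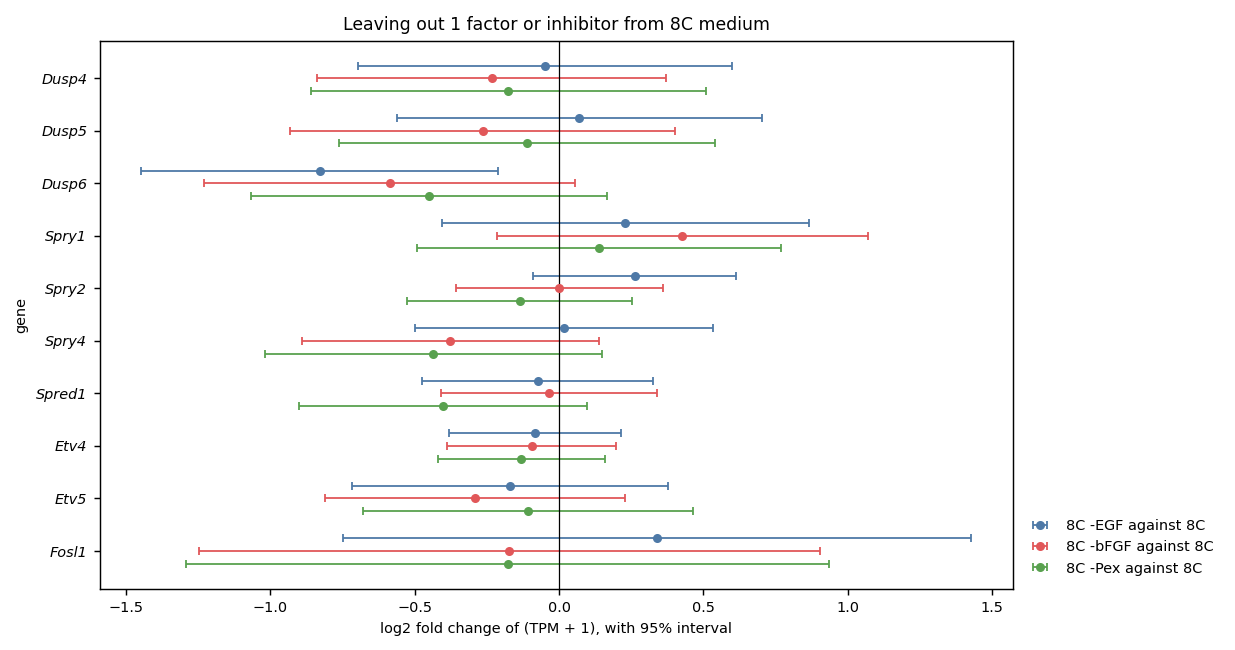
Log2 fold change of TPM + 1 (horizontal axis) of the 10 genes after EGF, bFGF or Pexmetinib was left out of 8C medium, with 95% intervals from limma (3 libraries against 7). The interval of Dusp6 without EGF, -1.45 to -0.21, is the only one that excludes 0.

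VPA and EPZ6438 were taken out of 8C medium singly and together. None of the 10 genes was called in any of these comparisons with limma. Removing both called 0 of 10 genes with limma, against 10.7% of all genes, and 1 of 10 had an unadjusted p below 0.05, as did 34.2% of all genes. This was Dusp5, whose 8C -VE libraries (43.9 to 64.3 TPM, median 53.2) overlapped those of 8C (54.3 to 164 TPM, median 63.5), with a log2 fold change of -0.51 (SE 0.21; adjusted p = 0.0891). Dusp6 had means of 77.5 TPM in 8C -VE and 77.4 TPM in 8C.

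Removing VPA alone called 0 of 10 genes, against 5.20% of all genes, and 0 had an unadjusted p below 0.05 with limma, compared with 25.4% of all genes. Removing EPZ6438 alone called 0 of 10, against 4.20% of all genes, and 1 had an unadjusted p below 0.05, as did 14.7% of all genes. It was Dusp4, which reached its highest condition mean here: 107 to 155 TPM in 8C -E (median 117), against 45.9 to 162 TPM in 8C (median 96.3; log2 fold change 0.46, adjusted p = 0.278). Adding VPA to 8C -VE (8C -E against 8C -VE) called 0 of 10 with limma, against 4.18% of all genes, and 0 had an unadjusted p below 0.05, compared with 20.8% of all genes. With the replicate number as a block, 2 of the 10 had an adjusted p below 0.05 there, both short of 2-fold: Dusp4, higher in all 7 pairs (log2 fold change 0.24, SE 0.060; adjusted p = 0.00958), and Spry1 (-0.19; adjusted p = 0.0195). In that fit 45.3% of all genes had an unadjusted p below 0.05. Adding EPZ6438 to 8C -VE (8C -V against 8C -VE) called 0 of 10 with limma, against 3.22% of all genes, and 3 had an unadjusted p below 0.05, as did 14.1% of all genes: Dusp4 (log2 fold change -0.33), Dusp6 (-0.26) and Dusp5 (0.33). The phosphatase genes thus did not share a sign there. With the replicate block 5 of the 10 had an unadjusted p below 0.05, compared with 40.7% of all genes, and the adjusted p was below 0.05 for Dusp5 (0.35; adjusted p = 0.00214), higher in all 6 pairs, and Dusp4 (-0.30; adjusted p = 0.0151), lower in all 6, neither reaching 2-fold. The interaction of the 2 drugs called 0 of 10 with limma, against 0.653% of all genes, and 0 had an unadjusted p below 0.05, compared with 3.81% of all genes.

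The order of the condition means of Etv4 was 8C -GSK3i (181 TPM), 8C (179), 8C -V (175), 8C -E (170), 8C -EGF (168), 8C -bFGF (166), 8C -Pex (162), 8C -VE (160), ENR +VE (117) and ENR (77.5). Neighbors in the order from 8C -GSK3i to 8C -VE overlapped in their libraries. 8C -VE and ENR +VE also overlapped, through 8C -VE replicate 7 at 119 TPM, and ENR +VE and ENR did not. For Dusp6 the order began with 8C -VE and 8C and ended with 8C -EGF (40.2 ± 2.09 TPM, SD, n = 3) and ENR (36.7 ± 6.61 TPM, SD, n = 7), and those last 2 overlapped. As a description over the 10 condition means, the member closest to Dusp6 was Etv5 (Pearson r = 0.88) and the member closest to Dusp4 was Spred1 (0.86). Dusp5 followed no other member closely, with its highest r at 0.31 (Spry4). Outside the members, the genes whose condition means were most like the average of the 10 standardised members, among 12615 genes, were Slc39a10 (Pearson r = 0.95), Mphosph6 (0.94), Arhgef40 (0.94), Shb (0.93) and Frmd4a (0.92). These means share media components, since most of the conditions are forms of 8C, and the correlations are descriptions.

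The other pathway genes in organoids are set against the 15.2% of all genes called in 8C against ENR and the 10.7% called in 8C -VE against 8C. Of the receptors and adaptors 1 of 14 tested rose in 8C against ENR, the FGF receptor gene Fgfr1 (log2 fold change 1.39). In 8C -VE against 8C it fell by 1.36 and Fgfr4 fell by 1.02, and these were 2 of 14. Of the ligand genes 0 of 6 tested were called in 8C against ENR. Of the other feedback genes 2 of 7 rose, the phosphatase gene Dusp9 (1.77) and the SPRED1 relative Spred3 (1.46). In 8C -VE against 8C both were called lower, at -1.03 and -1.56. Of the other output genes 2 of 12 rose, the ephrin receptor gene Epha4 (1.07) and the urokinase receptor gene Plaur (1.20; adjusted p = 0.0468). In the stress kinase list 2 of 10 rose, the p38 genes Mapk11 (4.01) and Mapk12 (2.54), and both also rose when VPA and EPZ6438 were added to ENR (3.08 and 2.17). In 8C -VE against 8C both were called lower, at -2.69 and -2.21. They encode forms of p38, and whether Pexmetinib acts on either form was not tested.

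In crypts, the comparison of irradiated with normal samples asked how the same genes move as the epithelium is lost and rebuilt. Etv4 was called higher and Dusp5 called lower at days 1, 2, 3 and 5, and Dusp6 was called higher at days 1, 2 and 3. The phosphatase genes Dusp5 and Dusp6 thus went in opposite directions, and the third, Dusp4, was not called on any day. Spry1 was called lower at days 2, 3 and 5, Spry2 was called lower at day 3, and Etv5 was called higher at day 5. Spry4 was at 0.0574 to 0.649 TPM in the 18 libraries, under the minimum mean of 1 TPM, and was not tested, so counts in crypts are of 9 genes. Etv5 reached that minimum, with a mean of 1.30 TPM over the 18 libraries, through the day 5 libraries, since its mean over the other 14 was 0.673 TPM. It was therefore tested because of the groups where it is high, and it counts in the 9 on that ground.

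Dusp5 stood at 50.6 and 54.8 TPM in the 2 normal crypt libraries. It was at 28.8 and 16.7 TPM at day 1, 5.80 and 5.84 TPM at day 2, 4.31 and 4.60 TPM at day 3 and 7.19 and 5.32 TPM at day 5. Every irradiated library was below both normal libraries, and the mean at day 3 was 11.8 times lower than in normal crypt. On the log2(TPM + 1) scale Dusp5 had a fold change of -1.22 at day 1, -2.98 at day 2, -3.30 at day 3 and -2.90 at day 5 (SE 0.24 each; limma, Benjamini-Hochberg adjusted p = 0.00602, 1.22e-06, 1.74e-07 and 1.26e-06). The day 1 call of Dusp5 was lost, at an adjusted p of 0.0857 or 0.0520, when IR day 1 replicate 2 or normal crypt replicate 2 was left out.

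Dusp6 stood at 6.65 and 8.00 TPM in normal crypt. It rose to 43.3 and 26.5 TPM at day 1 and 57.9 and 50.2 TPM at day 2, then stood at 22.1 and 18.7 TPM at day 3 and 11.2 and 15.3 TPM at day 5. All 8 irradiated libraries were above both normal ones, with the highest at day 2. The log2 fold change was 2.07 at day 1, 2.73 at day 2, 1.36 at day 3 and 0.76 at day 5 (SE 0.24 each; adjusted p = 1.19e-04, 2.35e-06, 1.81e-04 and 0.0312), and only day 5 fell short of 2-fold.

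The 300 bases around the transcription start of these genes are shown because Dusp5 and Dusp6, phosphatase genes for the same kinase, moved apart, and Etv5 because its rise came later. They are RefSeq sequences of GRCm38.p6, from 250 bases before to 50 bases after the start. Of the 10 genes 6 matched the promoter table (Dusp5, Dusp6, Spry1, Spry2, Spred1 and Etv5, the last with 2 entries); Dusp4, Spry4, Etv4 and Fosl1 are named only. Capitals mark matches, on either strand, to the ETS motif GGAAGT and to the CArG box, the site of serum response factor, which was added after the sequences were seen.
Dusp5 (chr19:53528895-53529194, plus strand): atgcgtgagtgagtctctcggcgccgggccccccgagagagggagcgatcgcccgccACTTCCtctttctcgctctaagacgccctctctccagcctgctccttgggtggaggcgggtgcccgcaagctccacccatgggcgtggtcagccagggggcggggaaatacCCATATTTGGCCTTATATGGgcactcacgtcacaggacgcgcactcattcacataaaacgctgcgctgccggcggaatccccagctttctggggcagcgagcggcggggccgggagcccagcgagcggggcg
Dusp6 (chr10:99262981-99263280, plus strand): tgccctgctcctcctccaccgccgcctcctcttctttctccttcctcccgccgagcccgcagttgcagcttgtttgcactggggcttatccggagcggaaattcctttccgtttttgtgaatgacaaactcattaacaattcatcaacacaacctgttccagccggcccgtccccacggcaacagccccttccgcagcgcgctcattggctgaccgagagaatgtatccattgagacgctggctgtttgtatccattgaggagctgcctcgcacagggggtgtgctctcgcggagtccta
Etv5 (chr16:22438319-22438618, minus strand): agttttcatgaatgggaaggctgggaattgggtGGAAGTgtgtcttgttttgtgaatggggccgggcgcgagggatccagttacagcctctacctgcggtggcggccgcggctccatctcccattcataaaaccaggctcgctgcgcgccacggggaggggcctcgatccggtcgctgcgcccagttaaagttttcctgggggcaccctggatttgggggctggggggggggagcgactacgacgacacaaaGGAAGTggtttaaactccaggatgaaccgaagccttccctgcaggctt
The Dusp5 sequence held 1 ETS match on its reverse strand, at position -193 from the start, and 2 adjoining CArG boxes at -82 and -72. This Etv5 entry held the ETS motif at -217 and at 3, and it lies inside the annotated gene. The other entry, chr16:22439521-22439820, spans the gene's annotated start and held none. No match to these motifs, or to the AP-1 motif TGANTCA or the CRE motif TGACGTCA, was found in the Dusp6 window or in those of Spry1, Spry2 and Spred1. Among 32851 promoters of the same length, 23.8% held GGAAGT, 1.63% a CArG box, 7.81% TGANTCA and 1.79% TGACGTCA. A match is a description of the letters, not of a bound site, and no motif searched overlapped another in these windows.

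In the gene annotation of the same assembly Dusp5 spans chr19:53529109-53542431, Dusp6 spans chr10:99263231-99267489, Etv4 spans chr11:101769742-101785371 on the minus strand and Etv5 spans chr16:22381309-22439719 on the minus strand. Spry1 lies at chr3:37639947-37644598 and Spry2 at chr14:105891947-105896819. All are protein coding.

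The 2 ETS factor genes followed different courses after irradiation. Etv4 stood at 0.211 and 1.85 TPM in normal crypt, and at 8.43 and 4.49 TPM at day 1, 7.29 and 7.48 TPM at day 2, 4.77 and 10.2 TPM at day 3 and 5.57 and 4.82 TPM at day 5. Every irradiated library was above both normal libraries, with log2 fold changes of 1.95, 2.17, 2.12 and 1.74 (SE 0.39 each; adjusted p = 0.00612, 5.51e-04, 2.26e-04 and 0.00476). The normal libraries differed from each other by more than any irradiated pair did in fold, and without normal crypt replicate 1 the day 1 and day 5 calls were lost, at log2 fold changes of 1.34 and 1.12 (adjusted p = 0.0564 and 0.0861). Etv5 stayed below 1 TPM in normal crypt (0.275 and 0.532 TPM) and through day 3, then stood at 4.42 and 4.18 TPM at day 5. Its log2 fold change was 1.92 at day 5 (SE 0.20; adjusted p = 9.87e-06), after 0.27, 0.00 and -0.19 on the earlier days. Etv5 reached the minimum mean only through these day 5 libraries, so this tests a gene admitted by its day 5 level. With no minimum mean limma gave an adjusted p of 1.32e-05 at day 5.

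The Sprouty genes that were tested, Spry1 and Spry2, overlapped normal crypt at day 1 and were not called there (log2 fold changes -0.84 and -0.47; adjusted p = 0.101 and 0.241), and at days 2, 3 and 5 every irradiated library of either gene was below both normal ones. Spry1 went from 3.81 and 7.44 TPM in normal crypt to 0.526 and 0.821 TPM at day 3, with log2 fold changes of -1.39, -1.93 and -1.31 at days 2, 3 and 5 (SE 0.33 each; adjusted p = 0.00360, 1.31e-04 and 0.00965). Without normal crypt replicate 2, the higher of the pair, its log2 fold changes were -0.99 at day 2 and -0.91 at day 5 and neither was called; without IR day 5 replicate 2 the day 5 value was -1.10 and also not called. Spry2 went from 3.60 and 5.29 TPM to 0.862 and 0.787 TPM at day 3, where it fell by 1.56 (SE 0.27; adjusted p = 1.58e-04), and it was at 3.17 and 2.25 TPM at day 5. Dusp4 (1.11 to 2.99 TPM in normal and irradiated crypts), Spred1 (0.332 to 2.28 TPM) and Fosl1 (0.712 to 3.32 TPM) were not called on any day.

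**Figure D4:**
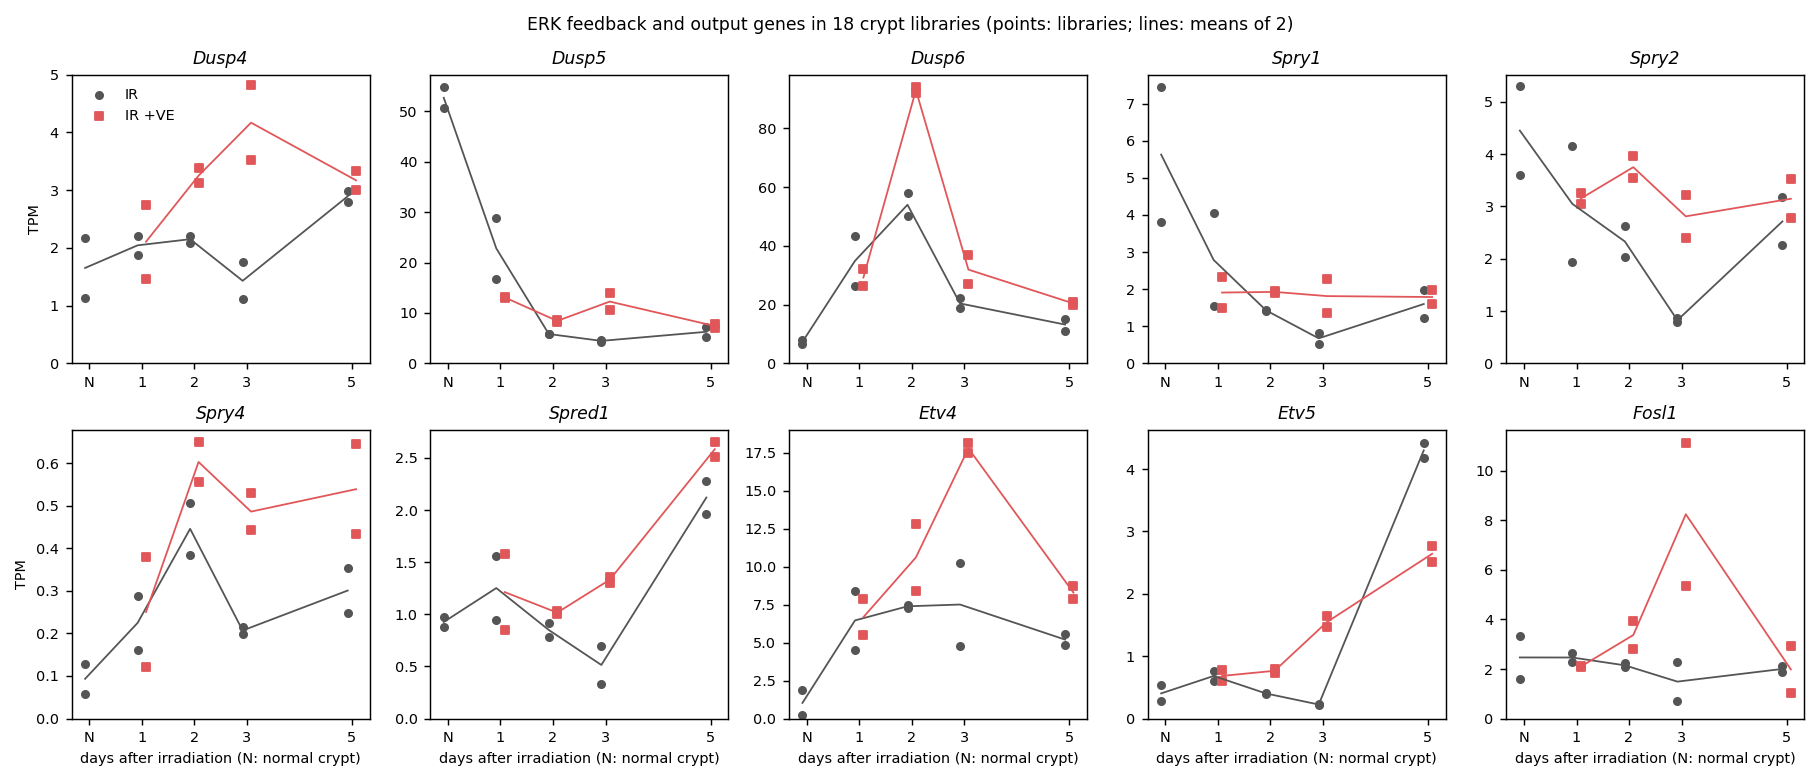
Level in TPM (linear axes from 0, scaled per gene) in normal crypt (N) and at day 1, 2, 3 and 5 after irradiation, without and with VPA and EPZ6438, with 1 point per library and lines through the means of 2. Without the drugs, Dusp5 drops from 50.6 and 54.8 TPM to 5.80 and 5.84 TPM by day 2, while Dusp6 peaks at day 2.

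The counts of members have to be read against the whole transcriptome, much of which moved. At day 1, 3 of 9 genes were called (2 higher and 1 lower), against 6.92% of all genes. At day 2, 4 of 9 were called (2 higher and 2 lower), against 30.8%. At day 3, 5 of 9 were called (2 higher and 3 lower), against 53.8%, and at day 5, 4 of 9 (2 higher and 2 lower), against 15.8%. The median log2 fold change of the 9 was 0.21, -0.06, -0.36 and 0.58, against -0.36, -0.61, -1.03 and 0.27 for all genes.

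The calls depend in part on the scaling. After quantile normalization 2, 3, 4 and 4 members were called at days 1, 2, 3 and 5, against 4.64%, 17.4%, 24.7% and 11.9% of all genes. With mitochondrially encoded genes removed the counts were 2, 4, 5 and 4, against 3.71%, 20.3%, 37.3% and 14.6%. At day 1 Dusp5 was no longer called under either scaling (log2 fold changes -0.80 and -0.95), and at day 2 Spry1 was not called after quantile normalization (-0.74). At day 3, 276 of the called genes were higher and 5538 lower in the deposited TPM, but 1194 were higher and 1472 lower after quantile normalization, which set the median of all genes to 0.00. Mitochondrially encoded genes took up 31.9% to 39.7% of the TPM scale at day 3, against 11.1% to 15.9% in normal crypt. Dusp5 remained lower and Dusp6 and Etv4 higher under both scalings: at day 3 their log2 fold changes were -2.05, 2.43 and 3.26 after quantile normalization, all called. Spry1 (-0.98) and Spry2 (-0.52) kept their sign at day 3 but not their calls. Dusp4 changed sign, from -0.11 to 1.02, and was then called (adjusted p = 0.00165).

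The makeup of the crypt samples moved with these changes. The stem cell list summed to between 209 and 382 TPM in normal crypt, 19.5 and 26.5 TPM at day 2, 20.4 and 23.9 TPM at day 3 and 121 and 166 TPM at day 5. Its genes went both ways: Olfm4 was called lower at days 1, 2 and 3 (log2 fold change -5.12 at day 3) and Cd44 called higher on each day (1.19 at day 3). The transit amplifying list (Top2a, Hmgb2 and Tubb5) summed to between 343 and 445 TPM in normal crypt, 71.2 and 90.0 TPM at day 2 and 479 and 579 TPM at day 5. The enterocyte list summed to between 5383 and 10077 TPM in normal crypt, 14359 and 15241 TPM at day 1, 18761 and 21864 TPM at day 2, 1522 and 4183 TPM at day 3 and 8291 and 9655 TPM at day 5. It was thus highest at day 2, as Dusp6 was, and it was below normal crypt at day 3, when Dusp6 was still above it. The Paneth cell list summed to between 9504 and 22648 TPM in normal crypt, 20835 and 21415 TPM at day 1 and 4491 and 6654 TPM at day 2. At day 3 it summed to between 8121 and 15216 TPM and at day 5 to between 5420 and 5840 TPM. The endothelial gene Cdh5 was listed at 0 in both day 3 libraries. The part of these cell types in the values of Dusp5, Dusp6 and Etv4 was not tested.

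Treatment with VPA and EPZ6438 was set against irradiation alone on each day. None of the 9 genes was called at days 1, 2 and 5, and 6 were called higher at day 3. At day 1, 0 of 9 were called with limma, against 0.00926% of all genes, and 1 of 9 had an unadjusted p below 0.05, as did 13.2% of all genes. This was Dusp5, at 13.2 and 12.9 TPM with the drugs and 28.8 and 16.7 TPM without (log2 fold change -0.71, adjusted p = 0.300). At day 2, 0 of 9 were called with limma, against 8.38% of all genes, and 1 of 9 had an unadjusted p below 0.05, as did 36.7% of all genes. This was Dusp6, at 92.1 and 94.0 TPM with the drugs and 57.9 and 50.2 TPM without (log2 fold change 0.78, SE 0.24; adjusted p = 0.0466), which gave Dusp6 its highest levels in the crypts. The enterocyte list was also highest there, at 28090 to 29439 TPM, and its part in the Dusp6 value was not tested. The day 2 values also depend on the scaling: 905 genes were called in the deposited TPM, 0 after quantile normalization and 0 with mitochondrially encoded genes removed. The Dusp6 value was then 0.45 (adjusted p = 0.343) and 0.60 (adjusted p = 0.226), and after quantile normalization 2 of the 9 members had positive values, where all 9 had in the deposited TPM.

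At day 3, 6 of 9 genes were called, all higher with the drugs, against 31.7% of all genes. The largest change on the log2(TPM + 1) scale was that of Fosl1, at 11.1 and 5.36 TPM with the drugs and 0.712 and 2.27 TPM without (1.89, SE 0.38; adjusted p = 0.00128). Dusp5 stood at 13.9 and 10.6 TPM, against 4.31 and 4.60 TPM without (1.27, SE 0.24; adjusted p = 9.61e-04), still below both normal crypt libraries. Etv4 stood at 17.4 and 18.1 TPM, against 4.77 and 10.2 TPM (1.22, SE 0.39; adjusted p = 0.0166). The 3 genes did not overlap between the groups. Etv5 stood at 1.64 and 1.46 TPM, against 0.209 and 0.240 TPM (1.06, adjusted p = 8.25e-04), and Spry2 at 3.22 and 2.40 TPM, against 0.862 and 0.787 TPM (1.05, adjusted p = 0.00557). In plain TPM the ratio of means was larger for Etv5 than for Fosl1, at 6.89 against 5.53. Dusp4 (1.09, adjusted p = 0.00341) completed the 6. Dusp6 (0.61), Spred1 (0.63) and Spry1 (0.73) did not reach 2-fold.

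The day 3 counts depend on the scaling. The median of all genes was 0.69 in the deposited TPM, and 3418 genes were called higher and 6 lower. After quantile normalization the median of all genes was -0.05, 883 genes were called higher and 361 lower, and 1 of the 9 members remained called. That member was Fosl1, at a log2 fold change of 1.10. This was 1 of 9 against 11.5% of all genes, and with mitochondrially encoded genes removed it was 5 of 9 against 27.8%. Without IR day 3 +VE replicate 1, Dusp4 (0.91) and Spry2 (0.90) fell short of 2-fold, and Etv4 was not called. Etv4 was also not called without IR day 3 replicate 1 (log2 fold change 0.74, adjusted p = 0.228) or without IR day 3 +VE replicate 2 (adjusted p = 0.0746), and Dusp4 not without IR day 3 replicate 1 (0.90). The epithelial list summed to between 4024 and 4207 TPM with the drugs at day 3 and 1999 and 2945 TPM without, and mitochondrially encoded genes took up 22.1% to 35.4% and 31.9% to 39.7% of the TPM scale. The stem cell list summed to between 55.3 and 68.9 TPM with the drugs and 20.4 and 23.9 TPM without, and the transit amplifying list to between 198 and 322 TPM and 108 and 177 TPM, each with 1 gene called higher. The part of these differences in the 6 calls was not tested.

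At day 5, 0 of 9 genes were called with limma, against 0.0185% of all genes, and 2 of 9 had an unadjusted p below 0.05, as did 1.65% of all genes. These were Dusp6, at 20.8 and 20.0 TPM with the drugs and 11.2 and 15.3 TPM without (log2 fold change 0.61), and Etv5, at 2.51 and 2.77 TPM with the drugs and 4.42 and 4.18 TPM without (-0.54). The adjusted p was 1 for both. Whether the change with the drugs differed between days was tested with a limma F test of the differences. Dusp5 and Etv5 passed it, 2 of 9, against 1.75% of all genes (adjusted p = 0.0468 for each), with Etv5 in the test only through its day 5 level. For Dusp5 the log2 fold change with the drugs was -0.71, 0.47, 1.27 and 0.22 at days 1, 2, 3 and 5, and for Etv5 it was 0.00, 0.33, 1.06 and -0.54. After quantile normalization the adjusted p was 0.121 for Dusp5 and 0.127 for Etv5.

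**Figure D5:**
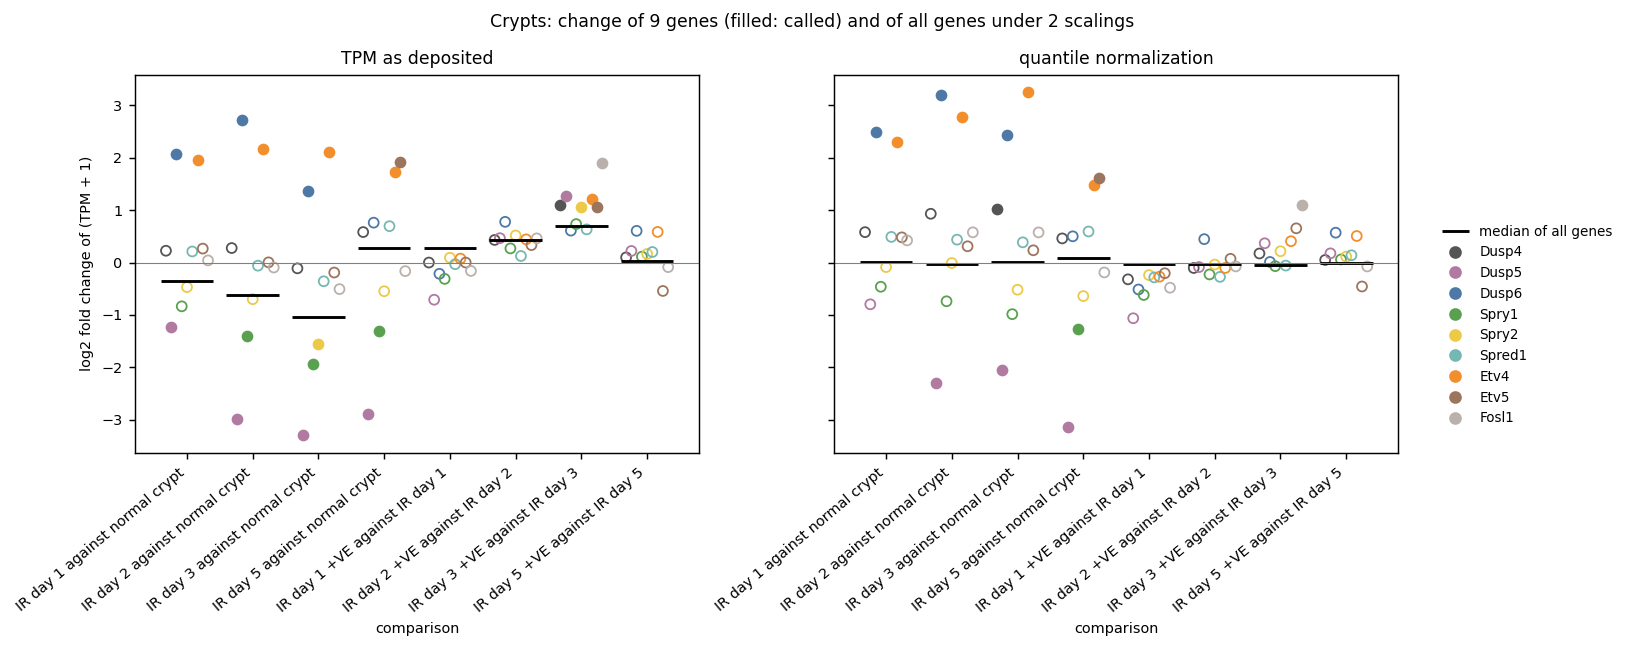
Log2 fold change of TPM + 1 of the 9 genes tested in crypts (points; filled where called) in the 8 crypt comparisons, in the deposited TPM and after quantile normalization, with the median of all genes. Dusp5 lies below and Dusp6 and Etv4 lie above 0 at each day after irradiation under both scalings.

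The rest of the pathway in crypts is set against the shares of all genes called in the same direction. At day 2, 3 of 11 other output genes rose and 4 fell, against 4.55% of all genes higher and 26.2% lower. The epithelial membrane protein gene Emp1 was at 26.4 and 27.5 TPM in normal crypt and between 151 and 203 TPM at day 2, while the immediate early genes Fosb, Egr1, Ier2 and Fos fell, with log2 fold changes of -4.89, -4.08, -3.32 and -3.21. At day 3, 2 of 11 rose and 6 fell, against 2.56% and 51.3%, and at day 5, 3 rose and 4 fell, against 10.2% and 5.61%. After quantile normalization, a check chosen after seeing the data, the counts were 3 and 4 at day 2, 4 and 4 at day 3 and 1 and 4 at day 5. Of all 10802 genes, 319, 1044, 1194 and 600 were then called higher at days 1, 2, 3 and 5. Those called lower numbered 182, 831, 1472 and 690. Of the 6 ligands tested, 2, 2, 1 and 1 were called higher at days 1, 2, 3 and 5 and 1, 2, 2 and 1 lower, against 1.43%, 4.55%, 2.56% and 10.2% of all genes higher and 5.48%, 26.2%, 51.3% and 5.61% lower. Hbegf fell, with log2 fold changes of -1.45, -3.73, -4.40 and -4.15 at days 1, 2, 3 and 5, and Btc, which encodes betacellulin, rose by 1.30, 2.13, 1.73 and 1.35. Both encode ligands of the EGF receptor, and these 2 genes went in opposite directions. After quantile normalization 3, 3, 3 and 1 ligands were called higher and 0, 1, 1 and 1 lower, to be set against the counts of all genes given above for that scaling. Btc was among the higher on each day, Areg was added at days 1, 2 and 3, and the day 1 call of Hbegf was lost (-1.04; adjusted p = 0.0775). The receptors and adaptors had 10 of 13 genes lower at day 3, led by Erbb2 (which fell by 3.09) and Erbb3 (which fell by 2.82). The median of all genes was -1.03 on that day, and after quantile normalization 3 of the 13 were lower and 2 higher. With VPA and EPZ6438 at day 3, 9 of 11 other output genes were higher, among them Egr1 (3.41), Fosb (3.35) and Fos (2.33), together with 4 of 6 ligands and 7 of 13 receptors and adaptors, against 31.6% of all genes. After quantile normalization these counts were 6 of 11, 1 of 6 and 1 of 13, against 883 of all 10802 genes called higher. Egr1 (2.65), Fosb (2.63) and Fos (1.86) were still called.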

How the data were processed

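The members and gene lists were chosen with earlier results of these data known. Per the submitters' processing notes and the study's methods, the authors trimmed reads with Trimmomatic 0.39, aligned them to mm10 with STAR 2.7.3a and counted them per gene with featureCounts. The authors deposited 1 table of TPM values; how counts became TPM is not given in the sources used here, and TPM keeps no depth, so no interval for counting error was computed. Columns were matched to samples by name, and the number of columns without a sample was 0.

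TPM values were taken as log2(TPM + 1). limma 3.58.1, run in R 4.3.3, tested each gene whose mean in the fitted libraries reached 1 TPM, using the libraries of the groups compared for organoids and all 18 libraries for crypts. A call needed a Benjamini-Hochberg adjusted p below 0.05 over all genes tested and a 2-fold change. Fold changes on this scale understate those of low genes. Described by name were the 10 members and, per list and comparison, at most the 4 called genes with the largest change. Results of some lists are not reported here. On simulated data with 200 genes changed by 2 on the log2 scale, the fit recovered 195 with 7 against 7 libraries (2 false calls), 191 with 3 against 7 (5 false calls) and 174 in the crypt fit (6 false calls). The changed genes had means of at least 5 TPM, and the simulated libraries varied independently. Changes near 2-fold, lower genes and splits by replicate number were therefore not covered.

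Alternatives were a pseudocount of 0.1 TPM, quantile normalization, no minimum mean, no minimum fold, removal of mitochondrially encoded genes, other sets of groups in the fit, subsets of replicate numbers, a replicate block and leaving out libraries. Same-numbered libraries deviated together, with every correlation of deviations above 0.1, in 8C -VE against ENR (0.31 to 0.64), 8C -V against 8C (0.11 to 0.60), 8C -E against 8C -VE (0.65 to 0.78), 8C -V against 8C -VE (0.69 to 0.77) and 8C -EGF against 8C -bFGF (0.13 to 0.54). That pairing comes from the data alone, since the labels do not say what a number marks.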

Additional observations from a re-analysis of the deposited data

Results flagged for a closer look

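A library stood far from the rest of its group for 5 of the 50 combinations of a member and an organoid group of 6 or 7 libraries that were examined with Dixon's criterion, and chance alone marks about 1 in 20. Etv4 was lowest in replicate 7 both of 8C -VE (118.9 TPM) and of 8C -E (118.9 TPM), and Fosl1 was highest in replicate 7 of 8C (13.9 TPM). Dusp5 was lowest in 8C -V replicate 6 (46.9 TPM), and Spred1 was lowest in 8C -VE replicate 4 (31.3 TPM).

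In crypts, the change with VPA and EPZ6438 differed between days for Dusp5 (limma F test, Benjamini-Hochberg adjusted p = 0.0468) and for Etv5 (adjusted p = 0.0468). Dusp5 had its highest log2 fold change at day 3 (1.27) and its lowest at day 1 (-0.71), and Etv5 had its highest at day 3 (1.06) and its lowest at day 5 (-0.54). Etv5 was in this test only through its level at day 5, which is among the days compared. After quantile normalization neither gene passed, against 0.0185% of all genes.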

How the results depend on the processing

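With no minimum fold change, the members called went from 1 to 5 in 8C against ENR, from 3 to 6 in 8C -VE against ENR, from 0 to 1 in ENR +VE against ENR and from 0 to 1 in IR day 2 +VE against IR day 2, where 35.1%, 9.35%, 20.7% and 14.6% of all genes were called. They also went from 4 to 5 at day 2 (52.9%) and from 4 to 6 at day 5 (27.2%) against normal crypt. In IR day 3 +VE against IR day 3 they went from 6 to 8 (52.5%). Replicates 1 to 3 alone gave 2 in 8C against ENR (17.7% of all genes), and replicates 4 to 6 alone gave 2 in 8C -VE against ENR (4.59%). ENR replicates 4 to 6 as the only controls of the ENR +VE libraries, which are numbered 1 to 3, gave 1 (13.7%). With only the 2 groups in the fit, 1 was called in IR day 1 against normal crypt (1.22%). Quantile normalization gave 2 in 8C -VE against ENR (3.19% of all genes). In crypts it gave 2, 3 and 4 at days 1, 2 and 3 against normal crypt, 1 in IR day 3 +VE against IR day 3 and 0 for the interaction of drugs and day. It reversed Dusp4 in IR day 3 against normal crypt (1.02), and a scaling changes what a value is relative to. Leaving out 1 library gave 1 to 2 in 8C against ENR, 2 to 4 in 8C -VE against ENR, 2 to 4, 3 to 4, 5 and 3 to 4 at days 1, 2, 3 and 5 against normal crypt, 3 to 6 in IR day 3 +VE against IR day 3, and 0 in the other comparisons of groups. In 8C against ENR the count was 2 without 8C replicate 2, 5 or 6 or without ENR replicate 2 or 7. Leaving out libraries of groups of 6 or 7, and those numbered 7 together, was chosen after seeing the data. In these fits, where an arm keeps 1 crypt library, that library is assumed to vary like the other groups.

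In the order of the deposited columns, the 8C -bFGF, -Pex, -GSK3i and -EGF libraries stand with 8C replicates 4 to 6. In the fits of these groups against 8C the numbers are not shown to pair libraries (correlations of deviations -0.39 to 0.46), and the block keeps only 8C replicates 1 to 3 as controls. It moved all genes called from 1 to 576, 62 to 524, 0 to 732 and 58 to 93, where those controls without a block gave 705, 797, 904 and 453 and 8C replicates 4 to 6 gave 1, 105, 7 and 341. The block also moved all genes called from 1 to 20 in IR day 1 +VE against IR day 1, from 82 to 218 for the interaction of the drugs and from 189 to 327 for that of drugs and day, but left each count of members called as it was: 1 in 8C against ENR, 3 in 8C -VE against ENR, 3, 4, 5 and 4 at days 1, 2, 3 and 5 against normal crypt, 6 in IR day 3 +VE against IR day 3, 2 for the interaction of drugs and day, and 0 elsewhere. Exchanging the numbers within day 1 and within day 2, chosen after seeing the data, gave 3 and 4. For single members, 3339 values kept their sign and their call status, and 261 changed sign with no call in either fit. Another 33 kept their sign but lost a call, 26 gained one, and 1 changed sign with a call. Depth is unknown, so low genes such as Spry4 and Fosl1 carry an error that could not be given.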
